A study of Mus musculus with 32 samples.

Results

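Integrins and a set of the matrix proteins that they bind were followed across 32 whole mouse mesothelioma tumors. The members were the rows of the deposited gene table whose symbol is that of an integrin alpha or beta subunit, together with 10 named ligand genes, which gives 31 of the 39676 rows. These rows belong to 30 distinct genes, of which 7 encode leukocyte integrin subunits, 16 encode other integrin subunits and 7 encode ligands. The rule names 36 genes, and Itga1, Itga2, Itga7, Thbs2, Nid1 and Nid2 have no row here and were not analysed here.

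The tumors came from 2 mouse mesothelioma lines, AB1 and AE17, each grown either in the pleural cavity (intrapleural, IPL) or beneath the skin (subcutaneous, SC). AB1 tumors grew in BALB/c mice given 500000 cells and AE17 tumors in C57BL/6 mice given 1000000 cells. Each combination of line and site had 8 mice. The mice were untreated young adult females per the study's methods and the labels, and all tumors were collected on day 10, with the lungs and surrounding tissues removed before RNA extraction. Each model is a single cell line in a single strain, so that cell line, strain and number of inoculated cells cannot be told apart in a comparison of the models. Levels are given as CPM, that is, counts per 1000000 after scaling with edgeR's TMM factors, and n = 8 tumors in each group throughout. In whole tumors, fewer cells of a type and less RNA per cell cannot be told apart.

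Integrins are cell surface receptors made of an alpha and a beta chain, which join the cytoskeleton to the surrounding matrix or to other cells. The leukocyte subunits studied here are Itgb2 with its partners Itgal (LFA-1), Itgam (Mac-1), Itgax (CD11c) and Itgad (CD11d), and Itgb7, which pairs with Itgae (CD103) or Itga4. The other subunits mostly form receptors for matrix, among which are laminin receptors (Itga3, Itga6, Itgb4), collagen receptors (Itga10, Itga11) and receptors for ligands with an Arg-Gly-Asp sequence (Itga5, Itga8, Itgav, Itgb3, Itgb5, Itgb6, Itgb8). Itgb1 is the common beta chain of many of them. Fibronectin (Fn1) and vitronectin (Vtn) are adhesive ligands, and tenascin C (Tnc), periostin (Postn), osteopontin (Spp1), thrombospondin 1 (Thbs1) and Sparc are matricellular proteins, which shape how cells respond to matrix more than they build it.

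Total counts per mouse ranged from 15432258 to 20649645. A level of 3 counts, used as the limit of detection, equals 0.145 to 0.194 CPM depending on the library, and this limit covers counting error only. The sequencing lanes overlapped with site in both models. In AB1, lane 3 held the 8 IPL tumors and 2 SC tumors, and lane 2 held 6 SC tumors. In AE17, lane 2 held 5 IPL tumors, and lane 1 held 3 IPL tumors and the 8 SC tumors. AB1 IPL tumor 2 was the least like the other tumors of its group across genes (median Pearson's r 0.951 on log2 CPM), and its mesothelial markers Wt1, Upk3b and Lrrn4 summed to 66.3 CPM. AB1 IPL tumor 4 followed with a median r of 0.955, and its Ptprc (CD45) level of 35.7 CPM was the lowest of the 32 tumors. In most tumors the mesothelial markers were low, with medians of their summed level of 0.942 CPM in AB1 IPL, 0.998 CPM in AB1 SC, 5.85 CPM in AE17 IPL and 0.150 CPM in AE17 SC tumors. By DESeq2 3 of 3 of these markers differed between sites in AE17 and 1 of 3 in AB1. EdgeR's filter kept 0 of them in AE17 and 1 in AB1, which did not pass. Their part in the results below was not tested.

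Members differed widely in level. Per kilobase of annotated exon (RPKM, group medians), Spp1 was highest in AB1 IPL (1023), AB1 SC (1189) and AE17 SC tumors (623), and Sparc was highest in AE17 IPL tumors (611). Among integrins, Itgb1 came first in every group, with medians between 232 and 267 RPKM. The lowest median belonged to Itga8 in AB1 IPL tumors (0.181) and to Itgb6 in AB1 SC (0.0258), AE17 IPL (0.230) and AE17 SC tumors (0.130). Itgb2 was the highest leukocyte subunit per length in both AB1 groups, and Itgb7 was highest in both AE17 groups, with medians of 107 RPKM in IPL and 59.1 RPKM in SC tumors.

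The first question was whether integrin and ligand genes differed between pleural and subcutaneous AB1 tumors. All 30 genes passed edgeR's filterByExpr and were tested with the other genes by edgeR's quasi-likelihood test, with Benjamini-Hochberg adjustment over all genes tested. In AB1, 16 of 30 members had an adjusted p under 0.05, against 23% of all 14645 genes tested. IPL tumors had higher levels of 9 of these members and lower levels of 7, beside 12.3% and 10.7% of all genes. The classes went different ways. In IPL tumors 6 of 7 leukocyte subunits were lower, 4 of 16 matrix subunits were higher and 1 was lower, and 5 of 7 ligands were higher. Itgb6, which passed the filter mainly through IPL tumors, is among these matrix subunits. The median log2 fold change was -0.88 over leukocyte subunits, 0.19 over matrix subunits and 0.62 over ligands, beside -0.0023 over all genes tested.

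Itgax, the alpha chain of the CD11c integrin of dendritic cells and macrophages, had the largest fall among the members. It ranged from 19.97 to 33.2 CPM (median 22.6) in AB1 IPL tumors and from 49.9 to 158 CPM (median 113) in AB1 SC tumors. Every IPL tumor lay below every SC tumor, and the fitted level was 4.45-fold lower (log2 fold change -2.15, SE 0.217, adjusted p = 9.01e-06). Itgad, which encodes the alpha chain of the CD11d integrin of macrophages, ranged from 2.14 to 3.48 CPM (median 2.92) in IPL and from 4.48 to 15.98 CPM (median 11.7) in SC tumors. These groups did not overlap either (log2 fold change -1.99, SE 0.224, adjusted p = 2.02e-05). Itgal, the alpha chain of LFA-1 on lymphocytes and other leukocytes, ranged from 16.7 to 59.0 CPM (median 41.8) in IPL tumors and from 63.1 to 133 CPM (median 90.4) in SC tumors, again without overlap (log2 fold change -1.27, SE 0.212, adjusted p = 0.000415). These were the only members for which all 8 AB1 IPL tumors lay below all 8 SC tumors, a separation that 2.52% of all genes tested showed, while 5.02% separated in either direction.

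Itgb2, the beta chain shared by Itgal, Itgam, Itgax and Itgad, ranged from 91.6 to 184 CPM (median 123) in AB1 IPL and from 178 to 307 CPM (median 213) in AB1 SC tumors. Of the 8 IPL tumors 7 lay below every SC tumor (log2 fold change -0.88, SE 0.144, adjusted p = 0.000346). Itgae, the CD103 chain of intraepithelial T cells and some dendritic cells, ranged from 7.37 to 25.2 CPM (median 16.1) in IPL and from 23.2 to 32.4 CPM (median 27.7) in SC tumors. All 8 IPL tumors were below the SC median, with some overlap (log2 fold change -0.79, SE 0.188, adjusted p = 0.00563). Itgb7, which pairs with Itga4 or Itgae on lymphocytes, ranged from 39.5 to 67.1 CPM (median 55.5) in IPL and from 63.5 to 92.2 CPM (median 82.1) in SC tumors, and this was the smallest of the 6 falls (log2 fold change -0.55, SE 0.1099, adjusted p = 0.00153).

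Itgam, the CD11b chain of monocytes, macrophages and neutrophils, was the 1 leukocyte subunit that neither edgeR nor DESeq2 called in AB1. It ranged from 33.4 to 96.7 CPM (median 46.2) in AB1 IPL tumors and from 48.1 to 82.0 CPM (median 63.3) in AB1 SC tumors, and the difference did not pass the test (log2 fold change -0.31, SE 0.193, adjusted p = 0.271). Without AB1 IPL tumor 2 it passed, at a log2 fold change of -0.48 (adjusted p = 0.0289). By limma-voom with a quality weight for each tumor, which called 7 of 7 leukocyte subunits in AB1, its log2 fold change was -0.43 (adjusted p = 0.0405). A further row that carries the symbol Itgam held between 1 and 13 counts per tumor and was not tested. GENCODE M21 names that gene Gm49368, and it covers 68.7% of the exon length of Itgam, so that reads on the shared exons may have been left out of both counts.

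**Figure D1:**
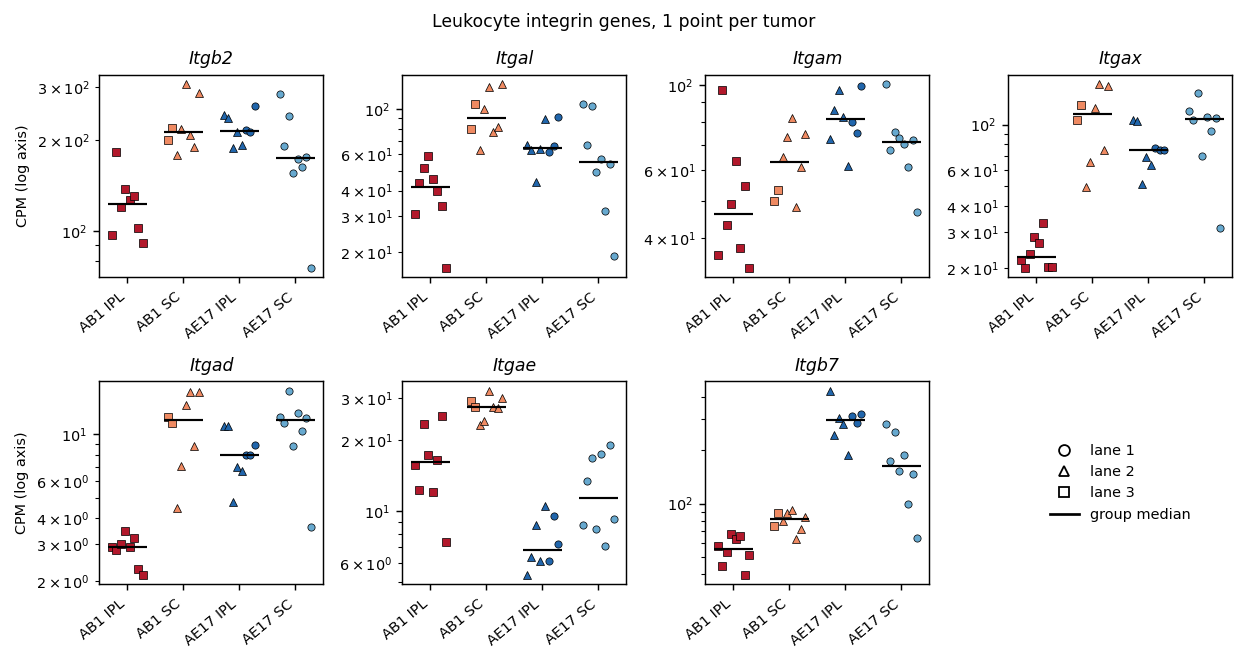
Levels of the 7 leukocyte integrin genes in CPM on a log axis, with 1 point per tumor, 8 tumors in each of 4 groups, a line at each group median and a marker shape for each sequencing lane. Itgax, Itgad and Itgal of AB1 IPL tumors lie below every AB1 SC tumor, while the AE17 groups overlap for all 7 genes.

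In AE17 tumors, none of the 7 leukocyte subunits passed the test between sites, with 2 at an unadjusted p under 0.05, while 5.73% of all 14668 genes passed. Itgax ranged from 51.2 to 105 CPM (median 75.2) in IPL and from 31.4 to 142 CPM (median 106) in SC tumors (log2 fold change -0.32, SE 0.225, adjusted p = 0.397). Itgb2 ranged from 188 to 259 CPM (median 214) in IPL and from 75.5 to 284 CPM (median 175) in SC tumors (log2 fold change 0.27, SE 0.180, adjusted p = 0.362). Itgal ranged from 43.9 to 91.3 CPM (median 64.8) and from 19.2 to 106 CPM (median 55.3) in these groups (log2 fold change 0.17, SE 0.274, adjusted p = 0.746). The values with an unadjusted p under 0.05 were those of Itgae and Itgb7. Itgae ranged from 5.35 to 10.5 CPM (median 6.80) in IPL and from 7.11 to 18.99 CPM (median 11.3) in SC tumors (log2 fold change -0.73, SE 0.218, adjusted p = 0.0566), and Itgb7 from 187 to 436 CPM (median 296) in IPL and from 64.1 to 284 CPM (median 164) in SC tumors (log2 fold change 0.80, SE 0.242, adjusted p = 0.0605). By edgeR, Itgae passed in AE17 without AE17 IPL 5 or AE17 SC 1, 4 or 6 (adjusted p down to 0.0284), and Itgb7 without AE17 IPL 5 or AE17 SC 1 or 3 (down to 0.0195). Itgad ranged from 4.76 to 10.99 CPM (median 8.004) in IPL and from 3.64 to 16.2 CPM (median 11.7) in SC tumors (log2 fold change -0.41, SE 0.227, adjusted p = 0.267), and the groups overlapped. In AE17, DESeq2 called 2 of the 7 subunits and limma-voom called 3 of the 7, while the 5.73% above is the share of all genes by edgeR alone.

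The difference between the site effects of the models was itself tested in 1 fit of all 4 groups. It passed for 13 of 30 members, against 20.5% of 15681 genes (11.9% with the more positive and 8.62% with the more negative effect in AB1), and for 5 of the 7 leukocyte subunits, all with the more negative effect in AB1. Among the 13 is Itgb6, whose value rests on 1 to 13 counts in AB1 SC tumors and is given as a description. The difference of log2 fold changes, AB1 minus AE17, was -1.82 (SE 0.321, adjusted p = 0.000286) for Itgax, -1.56 (SE 0.326, adjusted p = 0.00136) for Itgad and -1.42 (SE 0.360, adjusted p = 0.00576) for Itgal. It was -1.34 (SE 0.277, adjusted p = 0.00121) for Itgb7 and -1.14 (SE 0.239, adjusted p = 0.00137) for Itgb2. For Itgae it was -0.035 (SE 0.298, adjusted p = 0.952), and for Itgam -0.50 (SE 0.241, adjusted p = 0.143), and neither passed. The site effects on Itgae were close in size in both models, at -0.79 in AB1 and -0.73 in AE17.

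Markers of leukocytes in general moved with these genes in AB1. Of 5 pan-leukocyte markers 4 were lower in IPL tumors by the same test, beside 10.7% of all genes. The summed level of the 5 markers ranged from 419.9 to 814 CPM in AB1 IPL tumors and from 795 to 1348 CPM in AB1 SC tumors. Ptprc itself ranged from 35.7 to 182 CPM (median 126) in AB1 IPL and from 205 to 397 CPM (median 262) in AB1 SC tumors. All 4 T cell markers with a row were lower, and so were 3 of 5 macrophage markers and 1 of 5 dendritic cell markers, beside the same 10.7%. Neutrophil markers were mixed, with 2 of 5 higher and 1 lower, beside 12.3% and 10.7% of all genes. In AE17, 0 of these 24 markers passed by edgeR, beside 5.73% of all genes by the same tool, with 4 at an unadjusted p under 0.05. DESeq2 called 1 and limma-voom 8. None of the 24 was at 0 throughout any group. The part of leukocyte markers in the integrin differences was not tested beyond the ratios that follow.

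The level of each leukocyte subunit was also set against Ptprc in the same tumor, and tested two-sided by exact permutation of the tumors (12870 ways to divide 8 from 8), adjusted over 14 values. In AB1, Itgam was higher in IPL tumors relative to Ptprc, by 0.91 on the log2 scale (means -1.22 ± 0.878 in IPL and -2.12 ± 0.283 in SC tumors, SD, n = 8, exact permutation adjusted p = 0.0315), and this held in 8 of 8 IPL tumors against the SC median. The difference for Itgax relative to Ptprc was -0.80, which did not pass (exact permutation adjusted p = 0.112). In AE17, Itgb7 was higher in IPL tumors relative to Ptprc by 0.86 (means 0.18 ± 0.625 and -0.68 ± 0.272, SD, n = 8, exact permutation adjusted p = 0.0315), in 7 of 8 IPL tumors. The other 11 values did not pass. These counts rested on single tumors. With AB1 IPL tumor 4, the tumor of lowest Ptprc, left out 5 values passed, and with AB1 SC tumor 1, 2, 5, 6, 7 or 8 left out 0 passed by the same exact permutation test, with the range over single tumors being 0 to 5. Within 1 lane 0 passed as well, but there a single value could not have passed after adjustment over 14 values. The result for Itgam also varied with the reference. With the mean log2 level of 5 pan-leukocyte genes in place of Ptprc, Itgam was higher in AB1 IPL tumors by 0.48, in 8 of 8 tumors (exact permutation adjusted p = 0.0200), and Itgax, Itgad and Itgal were lower, with differences of -1.22, -1.01 and -0.46 (exact permutation adjusted p values of 0.00218 to 0.0250). With Coro1a, an actin regulator of leukocytes, in place of Ptprc it was 0.050 (exact permutation adjusted p = 0.761), and Itgax, Itgad, Itgal and Itgb2 were then lower in AB1 IPL tumors, with differences of -1.65, -1.44, -0.90 and -0.47 and adjusted p values of 0.000725 to 0.00109 by the same exact permutation test. In AE17, Itgae was lower in IPL tumors, with differences of -0.81 relative to Coro1a and -0.74 relative to the 5 genes, in 8 of 8 tumors (exact permutation adjusted p = 0.00544 and 0.0196), and Itgb2 was higher relative to the 5 genes by 0.28, in 7 of 8 (exact permutation adjusted p = 0.0345). Itgb7 remained higher with either reference.

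Itgam, Itgax and Itgad lie side by side on chromosome 7. In GENCODE M21 on GRCm38, Itgam spans 128062640 to 128118491, Itgax 128129547 to 128150657 and Itgad 128154376 to 128223816, all on the plus strand, with gaps of 11055 bp between Itgam and Itgax and 3718 bp between Itgax and Itgad. Across the 32 tumors, Itgax and Itgad followed each other with a Pearson's r of 0.988 on log2 CPM, and between 0.741 and 0.994 within single groups of 8. Itgad counts were between 8.97% and 14.1% of Itgax counts in every tumor. Itgam and Itgax had an r of 0.462 over the same tumors. Within groups the latter ranged from -0.231 to 0.764. These are descriptions over tumors that share lanes and hosts. Of the 50-base windows of Itgax transcripts 8.02% also occur in Itgad transcripts, and no such window is shared between Itgam and Itgax. Of the Itgad windows 8.43% occur in Itgax transcripts, and 19.7% occur in transcripts of any other gene. Other genes cover 19.7% of the exon length of Itgad on either strand and 7.32% on the same strand.

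The upstream sequences of Itgam and Itgax are shown because Itgax had the largest fall of the members in AB1 and Itgam is its neighbor, with a smaller value in the same direction. Whether the site effects on these genes differ was not tested. They are the 250 bases before the RefSeq start on GRCm38.p6, at chr7:128062390-128062639 for Itgam and chr7:128129300-128129549 for Itgax, plus strand. Both strands were searched for a PU.1-type ETS motif, written GAGGAA, for the AP-1 motif TGANTCA, where N is any base, and for motifs of RUNX, of TEAD and of the TATA box. Capitals mark the matches.
Itgam: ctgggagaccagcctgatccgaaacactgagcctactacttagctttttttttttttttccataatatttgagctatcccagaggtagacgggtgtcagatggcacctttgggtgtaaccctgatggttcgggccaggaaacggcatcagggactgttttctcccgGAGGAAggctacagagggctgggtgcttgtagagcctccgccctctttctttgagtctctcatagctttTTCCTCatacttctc
Itgax: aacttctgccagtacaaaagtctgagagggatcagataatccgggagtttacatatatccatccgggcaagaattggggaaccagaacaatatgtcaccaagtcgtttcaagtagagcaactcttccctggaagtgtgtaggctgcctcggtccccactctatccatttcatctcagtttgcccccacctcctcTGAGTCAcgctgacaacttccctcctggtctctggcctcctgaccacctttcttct
The Itgam window holds GAGGAA at 84 bases before the start and its reverse complement at 15 bases before the start. The Itgax window holds TGAGTCA, a form of TGANTCA, at 56 bases before the start, and no GAGGAA. Of all 32851 RefSeq promoter windows of this length, 23.3% hold GAGGAA and 6.75% hold TGANTCA. RefSeq windows were found for 21 of the 30 members. Of their 26 windows 10 hold GAGGAA and 1 holds TGANTCA. The RUNX motif searched was TGTGGT, found in 3 member windows and 14% of all windows. The TEAD motif searched was GGAATG, found in 3 member windows and 12.6% of all windows.

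**Figure D2:**
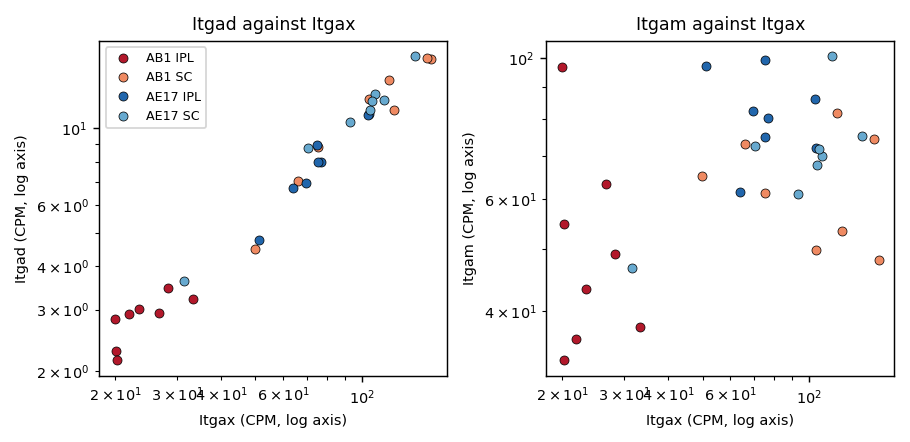
Itgad (left) and Itgam (right) against Itgax in CPM on log axes, with 1 point per tumor and 32 tumors colored by group. Itgad follows Itgax through all groups (r 0.988), while Itgam spreads widely at a given Itgax level (r 0.462).

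Among matrix integrins, the laminin receptor chain Itgb4, which with Itga6 anchors epithelial cells to basement membrane, moved in opposite directions in the models. In AB1 it ranged from 15.8 to 43.6 CPM (median 25.9) in IPL and from 7.10 to 17.04 CPM (median 11.8) in SC tumors, higher in all 8 IPL tumors than the SC median (log2 fold change 1.09, SE 0.202, adjusted p = 0.000936). In AE17 it ranged from 1.13 to 5.93 CPM (median 3.07) in IPL and from 3.95 to 22.8 CPM (median 8.07) in SC tumors, and all 8 IPL tumors were below the SC median (log2 fold change -1.72, SE 0.407, adjusted p = 0.0261). The difference between the site effects was 2.83 (SE 0.459, adjusted p = 0.000131) on the log2 scale. The highest AE17 SC tumors were 5 and 6, and their summed level of the keratinocyte markers Krt5, Krt14 and Krt10 was 12.9 and 22.6 CPM, against a group median of 2.83 CPM. The AE17 call for Itgb4 was lost without AE17 IPL 4 or 7 or AE17 SC 5. Without AE17 SC tumor 5 the effect was -1.44 (adjusted p = 0.0563), and leaving out any 1 tumor gave values between -1.93 and -1.44. The part of keratinocytes in this result was not tested.

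The partner chain Itga6 did not pass in either model (-0.15 in AB1 and 0.090 in AE17). Itga3, a laminin receptor chain that pairs with Itgb1, ranged from 106 to 185 CPM (median 161) in AE17 IPL and from 33.9 to 147 CPM (median 82.8) in AE17 SC tumors (log2 fold change 0.86, SE 0.238, adjusted p = 0.0452). All 8 IPL tumors exceeded the SC median, although the groups overlapped. In AB1 it ranged from 39.7 to 77.0 CPM (median 58.7) in IPL and from 33.0 to 63.8 CPM (median 42.7) in SC tumors (log2 fold change 0.42, SE 0.151, adjusted p = 0.0535). DESeq2 and limma-voom called Itga3 in AB1 (adjusted p = 0.0334 and 0.0240), and so did edgeR without AB1 IPL 2, AB1 SC 1 or AB1 SC 3. The AE17 call for Itga3 was lost when any of 12 tumors was left out (AE17 IPL 1, 2, 3, 4, 6, 7 or 8 or AE17 SC 2, 5, 6, 7 or 8), at adjusted p values up to 0.0844.

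Of the chains for Arg-Gly-Asp ligands, Itgb6 forms the epithelial integrin that binds fibronectin and latent TGF-beta. It ranged from 0.533 to 4.56 CPM (median 2.91) in AB1 IPL and from 0.0583 to 0.759 CPM (median 0.183) in AB1 SC tumors (log2 fold change 2.91, SE 0.528, adjusted p = 0.000812). Its counts were 10 to 98 in AB1 IPL and 1 to 13 in AB1 SC tumors, so that it passed the filter on low counts mainly through the IPL tumors, and the lower SC values lie under the limit that 3 counts set. The fold change is therefore given as a description. In AE17 its level was 0.912 to 2.36 CPM (median 1.63) in IPL and 0.243 to 1.58 CPM (median 0.926) in SC tumors (log2 fold change 0.85, SE 0.269, adjusted p = 0.0697), and the difference between the models, which rests on the same AB1 SC values, was 2.08 (SE 0.603, adjusted p = 0.0139). With 10 counts required in every tumor Itgb6 was not tested in AB1, and Itgb6, Itga8 and Vtn were not tested for the difference between the models. Itgb5, a vitronectin receptor chain, ranged from 146 to 284 CPM (median 197) in AB1 IPL and from 122 to 197 CPM (median 139) in AB1 SC tumors (log2 fold change 0.43, SE 0.121, adjusted p = 0.0155), and in AE17 its difference was 0.16 (SE 0.0594, adjusted p = 0.101), with 254 to 329 CPM (median 291) in IPL and 229 to 278 CPM (median 255) in SC tumors.

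Itgb3, which pairs with Itgav or with the platelet chain Itga2b, was higher in AE17 IPL tumors. It ranged from 63.0 to 92.7 CPM (median 76.5) in IPL and from 36.5 to 61.3 CPM (median 47.0) in SC tumors, and every IPL tumor lay above every SC tumor (log2 fold change 0.63, SE 0.101, adjusted p = 0.00598). Such a separation, in this direction, was seen for 0.273% of all genes tested in AE17, and a separation in either direction for 0.573%. In AB1 Itgb3 ranged from 6.19 to 29.6 CPM (median 13.3) in IPL and from 11.9 to 16.8 CPM (median 13.5) in SC tumors, with wide overlap (log2 fold change 0.094, SE 0.228, adjusted p = 0.800). Itga2b went the other way in AE17, with 7.60 to 16.2 CPM (median 11.3) in IPL and 11.6 to 26.9 CPM (median 17.4) in SC tumors (log2 fold change -0.61, SE 0.169, adjusted p = 0.0452). In AB1 it ranged from 3.87 to 19.8 CPM (median 9.57) in IPL and from 5.84 to 11.3 CPM (median 10.2) in SC tumors (log2 fold change 0.083, SE 0.274, adjusted p = 0.856). Of 4 platelet markers with a row, 3 were tested in AE17 and 0 passed by edgeR, beside 5.73% of all genes. All 3 had an unadjusted p under 0.05, and DESeq2 and limma-voom each called 1. Pf4, the platelet factor 4 gene, had medians of 32.6 CPM in AE17 IPL and 40.8 CPM in AE17 SC tumors. Gp1ba also had the lower median in IPL tumors (1.37 against 1.64 CPM). Ppbp went the other way, with medians of 1.72 CPM in AE17 IPL and 0.859 CPM in AE17 SC tumors. The Itga2b call was lost when any of 11 tumors was left out (AE17 IPL 1, 2, 3, 4, 6, 7 or 8 or AE17 SC 2, 5, 6 or 7), at adjusted p values up to 0.0864.

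Itga8, a chain found on smooth muscle and mesenchymal cells, was low in all groups. It ranged from 1.13 to 3.51 CPM (median 2.32) in AE17 IPL and from 2.97 to 11.6 CPM (median 6.86) in AE17 SC tumors (log2 fold change -1.47, SE 0.295, adjusted p = 0.0144). Of 3 pericyte and smooth muscle markers 1 was also lower in AE17 IPL tumors, beside 3.13% of all genes. In AB1 it was 0.366 to 2.13 CPM (median 1.33) in IPL and 0.483 to 1.22 CPM (median 0.667) in SC tumors (log2 fold change 0.77, SE 0.336, adjusted p = 0.109). The site effects differed between models (2.26, SE 0.459, adjusted p = 0.00108).

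Itga11, a collagen receptor chain of fibroblasts, ranged from 1.10 to 11.3 CPM (median 5.31) in AB1 IPL and from 0.785 to 2.36 CPM (median 1.47) in AB1 SC tumors (log2 fold change 1.96, SE 0.428, adjusted p = 0.00300). The 2 lowest IPL tumors fell within the SC range. In AE17 it was far higher and overlapped between sites, with 31.3 to 100.2 CPM (median 48.7) in IPL and 37.6 to 88.2 CPM (median 60.1) in SC tumors (log2 fold change -0.29, SE 0.221, adjusted p = 0.434), and the site effects differed (2.28, SE 0.481, adjusted p = 0.00149). In AB1 2 of 3 fibroblast markers and 5 of 6 skeletal muscle markers were higher in IPL tumors, beside 12.3% of all genes. The summed level of the muscle markers ranged from 95.6 to 3561 CPM in AB1 IPL tumors, against 53.0 to 452 CPM in AB1 SC tumors. With scores of muscle, heart, fat and lung epithelium markers as covariates, the AB1 effect on Itga11 was -0.10 (adjusted p = 0.919) and that on Itgb6 was 0.61 (adjusted p = 0.418).

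Itga4, which pairs with Itgb1 or Itgb7 and binds Vcam1 and fibronectin, is carried by leukocytes and other cells. It ranged from 12.2 to 42.5 CPM (median 28.8) in AB1 IPL and from 34.6 to 61.3 CPM (median 41.8) in AB1 SC tumors (log2 fold change -0.61, SE 0.194, adjusted p = 0.0301), and from 42.9 to 102 CPM (median 57.8) in AE17 IPL and from 26.9 to 61.6 CPM (median 53.1) in AE17 SC tumors (log2 fold change 0.34, SE 0.190, adjusted p = 0.278). Its site effects differed between the models (-0.93, SE 0.282, adjusted p = 0.0186), in the same direction as those of the leukocyte chains. Without AB1 IPL tumor 4, the lowest of its group, the AB1 effect was -0.52 and still passed, and it did not pass without AB1 IPL 1, 2 or 6 or AB1 SC 5 or 8. Itga9, which binds tenascin C and Vcam1, did not pass in either model (0.14 in AB1 and 0.31 in AE17). The remaining matrix chains Itga5, Itga10, Itgav, Itgb1 and Itgb8 passed in neither model by edgeR with all tumors, with log2 fold changes between -0.077 and 0.36 in AB1 and between -0.61 and 0.39 in AE17. By limma-voom, Itgb8 was called in AB1 (0.42, adjusted p = 0.0263), and Itga5, Itga10, Itgb1 and Itgb8 in AE17 (adjusted p = 0.00449 to 0.0471), while DESeq2 called none of these 5 in either model. By edgeR, Itga5 and Itga10 passed in AE17 without AE17 SC tumor 1, and Itgb8 without AE17 IPL tumor 5. Itgb1 had group medians between 948 and 1088 CPM.

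**Figure D3:**
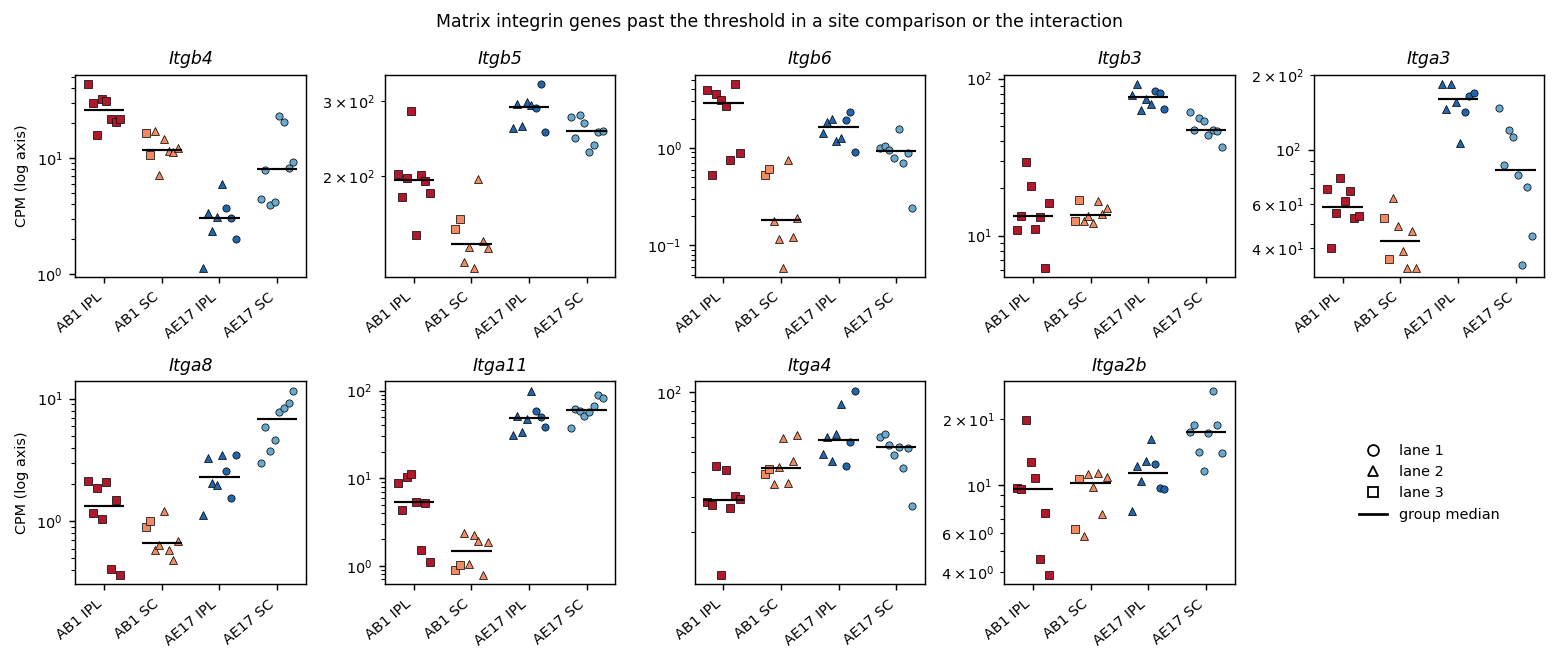
Levels of the 9 matrix integrin genes that passed the threshold in a site comparison or in the test of the difference between models, in CPM on log axes, with 1 point per tumor, 8 tumors in each of 4 groups, a line at each group median and a marker shape for each sequencing lane. Itgb4 is higher in IPL than in SC tumors of AB1 and lower in those of AE17, and Itgb3 of AE17 IPL tumors lies above every AE17 SC tumor.

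In AB1, 5 of 7 ligand genes were higher in IPL tumors and 0 were lower by edgeR, beside 12.3% and 10.7% of all genes, and in AE17 1 of 7 was called, beside 5.73%. The difference between the models passed for 3 of the 7 (Vtn, Fn1 and Sparc), beside 20.5% of all genes. In the same AB1 tumors 2 of 3 fibroblast markers, 2 of 3 pericyte and smooth muscle markers and 5 of 6 skeletal muscle markers were also higher in IPL tumors. With the tissue marker scores as covariates, Vtn kept its AB1 call (1.92, adjusted p = 0.00612), while the values of Fn1 (0.65, adjusted p = 0.0542), Sparc (0.46, adjusted p = 0.140), Tnc (0.45, adjusted p = 0.214) and Thbs1 (0.67, adjusted p = 0.137) kept their direction and did not pass. Vtn encodes vitronectin, a plasma and matrix protein made mainly by the liver that binds the Itgav integrins. It ranged from 2.30 to 12.5 CPM (median 7.75) in AB1 IPL tumors and from 0.707 to 1.34 CPM (median 0.816) in AB1 SC tumors. It was the only member for which every AB1 IPL tumor lay above every SC tumor, a separation seen for 2.50% of all genes tested (log2 fold change 3.13, SE 0.314, adjusted p = 9.01e-06). In AE17 it ranged from 0.178 to 4.17 CPM (median 1.02) in IPL and from 0.301 to 1.11 CPM (median 0.611) in SC tumors (log2 fold change 0.99, SE 0.490, adjusted p = 0.219), and the site effects differed (2.16, SE 0.587, adjusted p = 0.00940). The liver markers Alb, Apoa1 and Apoh were at most 0.0533, 0.102 and 0.0533 CPM in AB1 IPL tumors, under the limit that 3 counts set, while Serpina1a ranged from 0.379 to 5.01 CPM in AB1 IPL and from 0.785 to 3.35 CPM in AB1 SC tumors. Serpina1a was named beside the 3 others after the values were seen, since it was the 1 liver marker above that limit in AB1 tumors.

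Fn1, which encodes fibronectin, ranged from 2927 to 5686 CPM (median 4062) in AB1 IPL and from 1849 to 3144 CPM (median 2228) in AB1 SC tumors. All 8 IPL tumors exceeded the SC median, and the fitted level was 1.81-fold higher (log2 fold change 0.86, SE 0.132, adjusted p = 0.000210). In AE17 its level was 1291 to 2089 CPM (median 1894) in IPL and 1604 to 5450.2 CPM (median 1983) in SC tumors (log2 fold change -0.42, SE 0.228, adjusted p = 0.259). The highest AE17 SC value came from tumor 6, and without that tumor the AE17 effect was -0.13. The difference between the models was 1.30 (SE 0.268, adjusted p = 0.00122), and it was 1.01 at its lowest when any 1 tumor was left out. Sparc, a collagen-binding matricellular protein, ranged from 1260.1 to 2901 CPM (median 1687) in AB1 IPL and from 1045 to 1260.5 CPM (median 1167) in AB1 SC tumors (log2 fold change 0.64, SE 0.139, adjusted p = 0.00307). In AE17 Sparc was 1778 to 3143 CPM (median 2315) in IPL and 1881 to 2981 CPM (median 2320.5) in SC tumors (log2 fold change -0.064, SE 0.117, adjusted p = 0.774), and the difference between the site effects was 0.72 (SE 0.184, adjusted p = 0.00636).

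Tnc, a matricellular protein of wound and tumor matrix, ranged from 136 to 376 CPM (median 236) in AB1 IPL and from 89.2 to 244 CPM (median 150.3) in AB1 SC tumors (log2 fold change 0.62, SE 0.201, adjusted p = 0.0335). Thbs1, an adhesive glycoprotein that activates latent TGF-beta, ranged from 75.7 to 164 CPM (median 116) and from 55.7 to 115 CPM (median 79.0) in the same groups (log2 fold change 0.45, SE 0.157, adjusted p = 0.0483). In both cases 7 of 8 IPL tumors exceeded the SC median, and both calls were lost when single tumors were left out. For Tnc these were AB1 IPL 3, 4 or 6 or AB1 SC 2, 4, 5, 6, 7 or 8, and for Thbs1 AB1 IPL 1, 2, 3, 4, 5 or 8 or AB1 SC 1, 2, 4, 6, 7 or 8. In AE17 Tnc ranged from 859.5 to 1798 CPM (median 1505) in IPL and from 1142 to 1519 CPM (median 1369) in SC tumors, and Thbs1 from 141 to 335 CPM (median 252) and from 90.8 to 251 CPM (median 215) in these groups. The AE17 differences were 0.056 (SE 0.133, adjusted p = 0.830) for Tnc and 0.34 (SE 0.185, adjusted p = 0.260) for Thbs1. Postn, a matricellular protein of fibroblasts, ranged from 95.0 to 401 CPM (median 287) in AB1 IPL and from 116 to 367 CPM (median 175) in AB1 SC tumors and did not pass (log2 fold change 0.59, SE 0.265, adjusted p = 0.120). Without AB1 SC tumor 6 the log2 fold change of Postn was 0.83 (adjusted p = 0.0210), and it also passed without AB1 IPL tumor 4, the lowest of its group. In AE17 the difference in Postn was 0.38 (SE 0.142, adjusted p = 0.114).

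Spp1, which encodes osteopontin, a phosphoprotein of macrophages and tumor cells that binds Itgav and Itga4 integrins, was lower in AE17 IPL tumors. It ranged from 550.4 to 735 CPM (median 673) in IPL and from 833 to 1132 CPM (median 1027) in SC tumors without overlap (log2 fold change -0.60, SE 0.0768, adjusted p = 0.00230), a separation in this direction that 0.300% of genes showed in AE17. In AB1 it ranged from 753 to 3882 CPM (median 1686) in IPL and from 1668 to 2443 CPM (median 1960.2) in SC tumors, and the IPL values spread on both sides of the SC values (log2 fold change -0.045, SE 0.241, adjusted p = 0.913). The difference between the site effects did not pass (0.58, SE 0.265, adjusted p = 0.126). An overlapping gene in GENCODE M21 covers 18.8% of the exon length of Spp1 on the same strand.

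**Figure D4:**
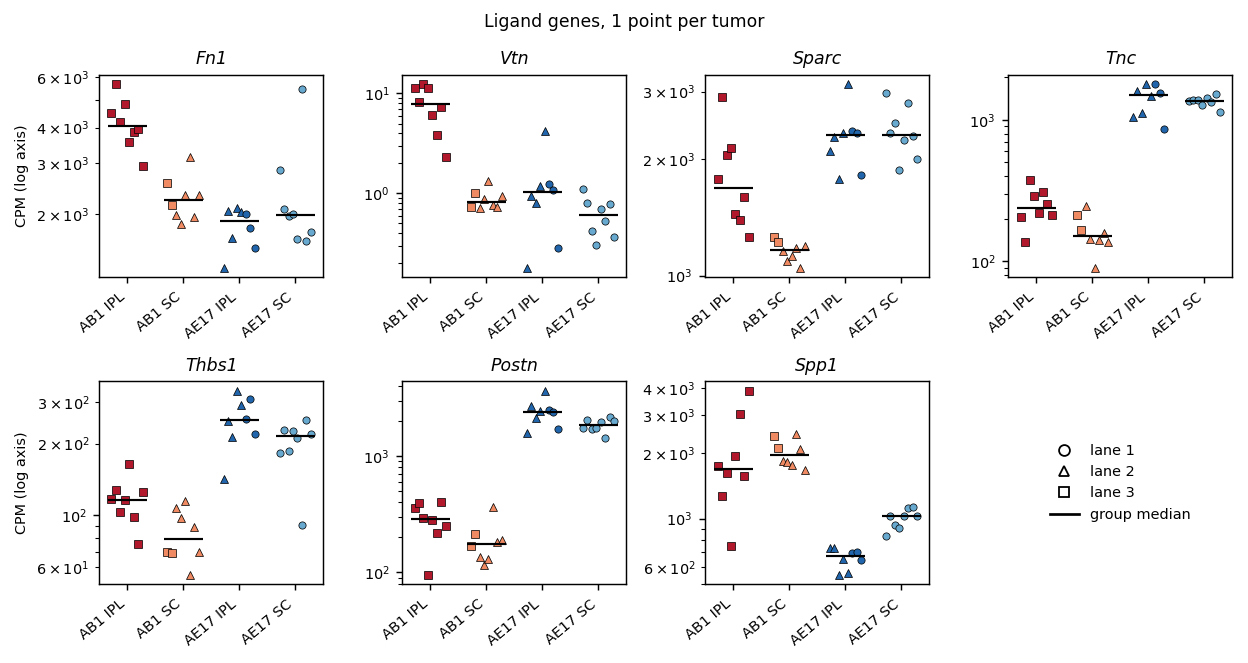
Levels of the 7 ligand genes in CPM on log axes, with 1 point per tumor, 8 tumors in each of 4 groups, a line at each group median and a marker shape for each sequencing lane. Vtn of AB1 IPL tumors lies above every AB1 SC tumor, Spp1 of AE17 IPL tumors lies below every AE17 SC tumor, and Postn and Tnc are higher in all AE17 than in all AB1 tumors.

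The site effects were set side by side over all members. In AE17, 6 of 30 members passed, 2 higher and 4 lower in IPL tumors, beside 2.60% and 3.13% of all genes, and leaving out 1 tumor gave 3 to 10 calls. Of the 6, Itgb4 also passed in AB1, in the opposite direction. The remaining 15 members called in AB1 and 5 called in AE17 passed in 1 model each. The difference between the models passed for 7 members with the more positive effect in AB1 (Vtn, Fn1, Sparc, Itgb4, Itgb6, Itga8 and Itga11) and for 6 with the more negative effect (Itgax, Itgad, Itgal, Itgb2, Itgb7 and Itga4). For Itgb6 it rests on 1 to 13 counts in AB1 SC tumors and is given as a description. By DESeq2, Itga3 was called in addition in AB1, and Itgae, Itgb6 and Itgb7 in AE17. By limma-voom, 20 members were called in AB1, with Itga3, Itga8, Itgam, Itgb8 and Postn gained and Thbs1 lost, and 15 in AE17. The shares of all genes given above are those of edgeR, so that these counts by DESeq2 and limma-voom cannot be set against them. For the remaining 17 members the difference between the models did not pass, so that a call in 1 model alone does not show that the models differed.

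**Figure D5:**
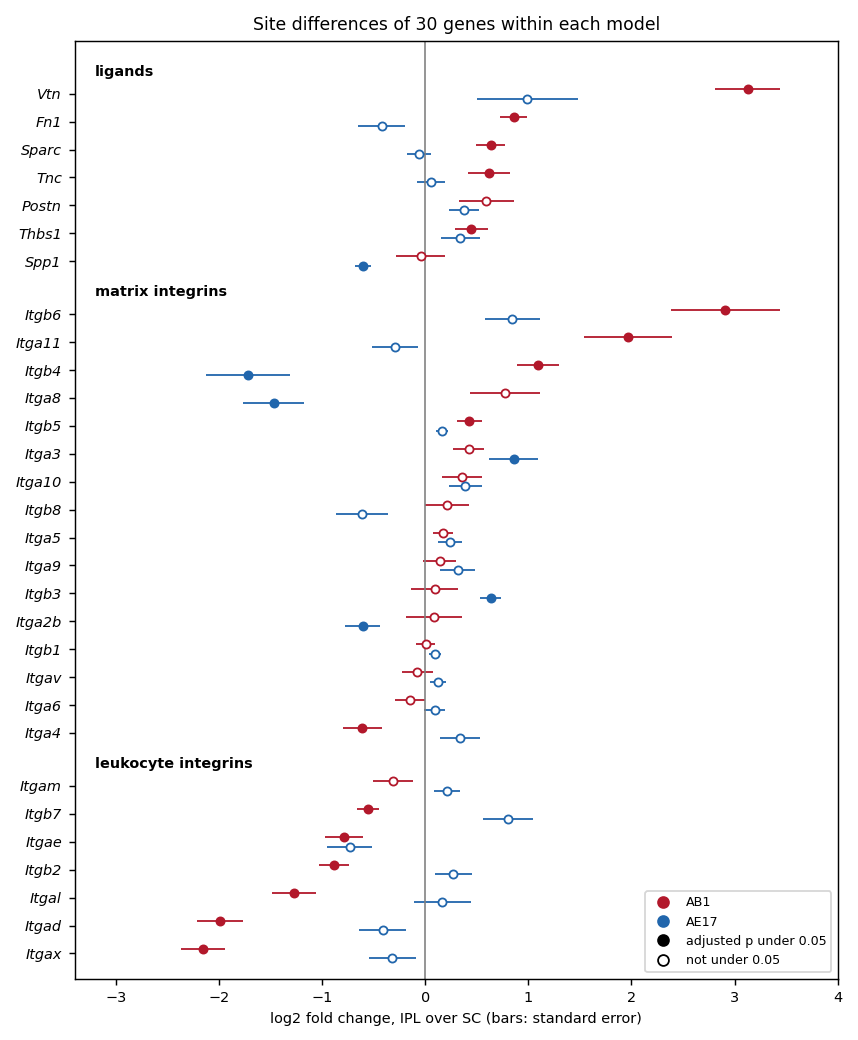
Log2 fold change of IPL over SC tumors for the 30 genes in AB1 (red) and AE17 (blue), with bars of 1 standard error and filled points for an adjusted p under 0.05, 8 tumors in each group. In AB1, 6 leukocyte integrins are filled to the left of 0, ligands lie mostly to the right in AB1, and Itgb4 is filled on both sides of 0.

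Because sequencing lane overlapped with site, the fits were repeated with lane as a covariate and within the single lane that held both sites. With the covariate, 4 of the 16 AB1 calls remained, namely Itgad, Itgal, Itgax and Vtn, and all 16 kept their direction, with log2 fold changes 0.628 to 1.61 times those without it (median 0.957). Within lane 3, with 8 IPL and 2 SC tumors, Itgad and Itgax remained and all 16 kept their direction, at 0.554 to 1.51 times the log2 fold change over all lanes (median 0.962). Their log2 fold changes there were -2.10 for Itgad and -2.31 for Itgax. In AE17, 0 of the 6 calls remained by edgeR under the covariate or within lane 1, which held 3 IPL and 8 SC tumors, and all 6 kept their direction. Their log2 fold changes were 0.928 to 1.19 times the values reported above under the covariate (median 1.01) and 0.929 to 1.19 times within lane 1 (median 1.01). Of the 13 differences between models, Itgax passed with the lane covariate (-1.89, adjusted p = 0.0442), and all 13 kept their direction, at 0.570 to 1.32 times the size without it (median 0.992). With the tissue marker scores as covariates, 5 of the AB1 calls remained (Itgad, Itgae, Itgal, Itgax and Vtn) and 1 of the AE17 calls (Spp1). The log2 fold changes of the 6 AE17 members kept their direction at 0.810 to 0.920 times their size (median 0.853), and those of the 16 AB1 members were -0.051 to 1.75 times theirs (median 0.841), with Itga11 the 1 that changed sign.

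The models were compared within each site in the fit of all 4 groups. Among SC tumors 21 of 30 members differed, 4 higher and 17 lower in AB1, against 58.3% of 15681 genes (28.6% higher and 29.7% lower). Among IPL tumors 27 of 30 differed, 6 higher and 21 lower, against 63.4% of genes (31.6% higher and 31.8% lower). Several of the largest differences were in matrix genes. Postn ranged from 95.0 to 401 CPM in AB1 IPL tumors and from 1582 to 3664 CPM in AE17 IPL tumors, with log2 fold changes of AB1 over AE17 of -3.06 (SE 0.238, adjusted p = 1.00e-12) in IPL and -3.30 (SE 0.240, adjusted p = 2.53e-13) in SC tumors. Tnc differed by -2.49 (SE 0.185, adjusted p = 3.50e-13) in IPL and -3.07 (SE 0.189, adjusted p = 4.62e-15) in SC tumors. Itga10 ranged from 2.24 to 5.30 CPM in AB1 IPL tumors and from 21.7 to 49.5 CPM in AE17 IPL tumors (-2.87, SE 0.184, adjusted p = 1.04e-14), and another gene covers 33.5% of its exon length. Itga11 differed by -3.10 (SE 0.337, adjusted p = 2.01e-09) in IPL and -5.37 (SE 0.390, adjusted p = 2.57e-13) in SC tumors, and Itgb3 by -2.32 (SE 0.187, adjusted p = 2.30e-12) and -1.80 (SE 0.185, adjusted p = 6.17e-10). Among SC tumors Itga8 also differed by -3.13 (SE 0.339, adjusted p = 1.82e-09). For Postn, Tnc, Itga10, Itga11 and Itgb3 every AB1 tumor lay below every AE17 tumor at both sites. Such a separation was common between the models, at 15.3% of all genes in IPL and 16.6% in SC tumors in this direction, and 28.1% and 30.9% in either direction.

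Fewer members were higher in AB1. Among IPL tumors, Itgb4 had the largest such difference, with every AB1 tumor above every AE17 tumor (3.13, SE 0.345, adjusted p = 2.24e-09), and Vtn followed, with some overlap (2.67, SE 0.395, adjusted p = 6.81e-07). Among SC tumors Itgb4 and Vtn did not pass (0.31 and 0.51). Spp1 was higher in every AB1 tumor than in every AE17 tumor at the same site (1.58, SE 0.192, adjusted p = 1.64e-08 in IPL and 1.01 (SE 0.189, adjusted p = 3.15e-05) in SC tumors), and so was Fn1 among IPL tumors (1.22, SE 0.192, adjusted p = 1.83e-06). A separation in this direction was seen for 12.9% of all genes in IPL and 14.3% in SC tumors. Itgae and Itgb8 were higher in AB1 at both sites. Itgb7, in contrast, was lower in AB1, by -2.42 in IPL and -1.08 in SC tumors. Strain, number of cells and cell line all changed with the model, so that their parts in these differences cannot be told apart. Lane changed with the model in part, since lane 2 held 6 AB1 SC and 5 AE17 IPL tumors. When lane entered this fit, which was decided once the data had been seen, 14 of the 21 calls in SC tumors and 18 of the 27 in IPL tumors remained, and all kept their direction, at 0.339 to 1.27 times the log2 fold change without lane in SC tumors (median 1.02) and 0.367 to 1.52 times in IPL tumors (median 0.967).

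A RefSeq window upstream of Postn is shown because this gene had one of the largest differences between the models. It is the 250 bases before the second of its 2 RefSeq starts, at chr3:54360857-54361106 on the plus strand of GRCm38.p6, and capitals mark TATAAA, the same motif as above. This window was chosen after the search because it holds that motif, and the window of the other start, at chr3:54359017-54359266, holds none of the 5 motifs searched.
Postn: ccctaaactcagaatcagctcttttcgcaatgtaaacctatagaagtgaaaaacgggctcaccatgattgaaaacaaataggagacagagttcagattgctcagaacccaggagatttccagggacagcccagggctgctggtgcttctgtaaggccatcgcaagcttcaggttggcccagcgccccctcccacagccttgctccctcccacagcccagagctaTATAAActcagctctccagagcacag
TATAAA lies 26 bases before the start. Of all windows of this length 12.4% hold it on either strand, and of the 26 member windows 5 do.

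The cytoplasmic proteins that link integrins to actin formed a list of 22 genes. Of these Fermt3, Ptk2, Lims2 and Vcl have no row here, and 17 of the 18 with a row were tested. In AB1, 1 was higher and 1 was lower in IPL tumors, beside 12.3% and 10.7% of all genes, with 5 at an unadjusted p under 0.05. There DESeq2 called 2 and limma-voom 4. The higher gene was Tln2, a talin (0.53, SE 0.0908, adjusted p = 0.000503), and the lower gene was Parvg, a parvin of leukocytes (-0.89, SE 0.216, adjusted p = 0.00644). Tln2 had means of 83.4 ± 14.1 CPM in IPL and 57.1 ± 2.66 CPM in SC tumors, and Parvg had means of 11.5 ± 4.63 CPM and 21.1 ± 3.80 CPM (SD, n = 8). In AE17, where 5.73% of all genes passed, 0 of the 17 passed by edgeR, although 7 had an unadjusted p under 0.05. DESeq2 called 5 and limma-voom 8, while the 5.73% is the share by edgeR alone. The difference between models passed for Tln2 (0.58), Parvg (-1.25) and Ptk2b, the kinase Pyk2 (-0.62). These 3 of 17 compare with 20.5% of all genes. Of the leukocyte integrin counter-receptors, 5 of 6 were tested, since Madcam1 has no row, and 3 were lower in AB1 IPL tumors, beside 10.7% of all genes. Vcam1, the endothelial ligand of Itga4, fell by 1.09 on the log2 scale (SE 0.137, adjusted p = 4.70e-05), from a mean of 185 ± 38.3 CPM in SC to 88.0 ± 17.2 CPM in IPL tumors (SD, n = 8). Cdh1, or E-cadherin, the ligand of Itgae, fell by 1.85 (SE 0.306, adjusted p = 0.000408), and Icam1, the ligand of Itgal and Itgam, fell by 0.64 (SE 0.146, adjusted p = 0.00437). In AE17 edgeR and DESeq2 each called 1 of the 5, while limma-voom called 3, and 3 had an unadjusted p under 0.05 by edgeR. The 1 called by edgeR was Icam2, higher in IPL tumors by 0.51 (SE 0.121, adjusted p = 0.0262).

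Across all 32 tumors and 15681 genes, the genes outside the lists whose log2 CPM was most like that of Itgb2 were Gpr35 (Pearson's r 0.943), Psap (0.928) and Slc31a2 (0.919). Those most like Postn were Hmcn1 (0.970), Nbea (0.970) and Slc44a1 (0.969). For Postn the tumors form separate clusters by model, and the likeness describes that split. Itgb2 followed Itgal with an r of 0.884, Itgax with 0.804 and Itgam with 0.735 over all tumors. Within single groups of 8 these values went down to 0.429, 0.240 and 0.310.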

How the data were processed

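RNA labelled as polyA RNA from 32 tumors (8 mice in each of 4 groups) was sequenced as 50 bp single-end reads. Per the study's methods, the authors mapped reads with HISAT2 2.0.4 to a mouse genome named mm11 and deposited raw gene counts with GENCODE identifiers, and the strand setting was not given in the sources used here. Counts were analysed with edgeR 4.0.16 (R 4.3.3): genes passing filterByExpr (minimum count 10), TMM scaling, quasi-likelihood tests and Benjamini-Hochberg adjustment over all genes tested, called at an adjusted p under 0.05. Sites were compared within each model, and 1 fit of all 4 groups gave the difference between models and the comparisons of models. Standard errors were the fold change divided by the square root of F. The scripts were tested on simulated counts. Coordinates come from GENCODE M21 on GRCm38, to which 39495 of 39676 identifiers matched without version, and upstream sequences from RefSeq on GRCm38.p6. Alternatives included DESeq2 1.42.0, limma-voom with a quality weight for each tumor (limma 3.58.1), other scaling and filters, lane, tissue marker scores and leaving out each tumor. The shares of all genes given beside the counts are by edgeR alone.

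Every member with a row was named, in full where it passed a site test or the test of the difference between models. From the adhesion and counter-receptor lists at most the 3 genes of smallest adjusted p per comparison were named, beside genes without a row. From a marker list at most 3 were named, except that Serpina1a was named after its values were seen. Members and gene lists were chosen with earlier results of these data known.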

Additional observations from a re-analysis of the deposited data

Results flagged for a closer look

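Of 120 sets of 8 tumors, 1 for each of 30 genes in each of 4 groups, 12 held a tumor that stood apart from the rest of its group by Dixon's criterion (critical value 0.526), where chance flags about 1 in 20. In AE17 SC tumor 8 the levels were low for Itgad (3.64 CPM), Itgax (31.4 CPM), Itgb2 (75.5 CPM), Itgb6 (0.243 CPM) and Itga4 (26.9 CPM). In AE17 SC tumor 6 Fn1 was high (5450.2 CPM) and Thbs1 low (90.8 CPM). In AB1 IPL tumor 4, the tumor of lowest Ptprc, the levels of Postn (95.0 CPM), Itgav (81.2 CPM) and Itga4 (12.2 CPM) were low. Itga5 was low in AE17 IPL tumor 5 (341 CPM), and Itga10 was high in AE17 IPL tumor 3 (49.5 CPM).

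For 13 of 30 members the site effect differed between the models (edgeR, adjusted p under 0.05). The test was that of the difference in 1 fit of all 4 groups, and 20.5% of all 15681 genes passed it. The difference of log2 fold changes, AB1 minus AE17, was -1.82 for Itgax, -1.56 for Itgad, -1.42 for Itgal, -1.34 for Itgb7, -1.14 for Itgb2 and -0.93 for Itga4. It was 2.83 for Itgb4, 2.28 for Itga11, 2.26 for Itga8, 2.16 for Vtn, 2.08 for Itgb6, 1.30 for Fn1 and 0.72 for Sparc. The value for Itgb6 rests on 1 to 13 counts in AB1 SC tumors and is given as a description.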

How the results depend on the processing

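Of the 16 members called in AB1, 4 were called with sequencing lane as a covariate, 2 within 1 lane and 5 with tissue marker covariates, under which the effect on Itga11 turned to -0.10. Of AE17, 3 members were called with no filter, 15 by limma-voom, 0 with the lane covariate, 0 within 1 lane, 1 with tissue marker covariates and 2 at an adjusted p under 0.01, beside 6 in the analysis reported. Of the 13 differences between models 1 was called with the lane covariate. Of the 14 levels relative to Ptprc, 2 passed as reported, 6 with Coro1a as the reference, 7 with 5 pan-leukocyte genes, 0 when sites were exchanged within replicate numbers (replicate block) and 0 within 1 lane, and Itgb2 in AB1 turned to -0.47 with Coro1a. The cause of these changes was not tested, except that within 1 lane fewer tumors were compared.

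Leaving out 1 tumor gave 13 (without AB1 SC 8) to 17 calls in AB1, 3 (without AE17 IPL 4, AE17 IPL 7 or AE17 SC 5) to 10 (without AE17 SC 1) in AE17, 13 to 15 for the difference between models, 20 to 21 and 26 to 27 between models in SC and IPL tumors, and 0 to 5 for levels relative to Ptprc. With the replicate number as a block 17 members were called in AB1 (Itga3 gained), 6 in AE17 (Itgae gained, Itga2b lost) and 13 for the difference between models. The numbers were not taken as pairs, since the deviations of tumors of the same number correlated above 0.1 in 0 of 8 pairs in AB1 (mean r -0.139) and in 5 of 8 in AE17 (mean r 0.087).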
